A study of Mus musculus with 15 samples.

Results

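The integrated stress response and the unfolded protein response were followed through 39 genes on 15 arrays of LSZ2 and LSZ4, 2 mouse lines of non-small cell lung cancer. The members were taken by gene name from the scanner files, and all 39 had a probe that was well above background on each of the 15 arrays. They are 39 of the 22836 genes tested. On the ATF4 side stood 21 genes, namely ATF4 itself, its partner factors and genes known as its targets. On the side of the endoplasmic reticulum (ER) stood 18 genes for stress sensors, chaperones and degradation factors.

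Both responses slow translation and change transcription when a cell is short of amino acids or carries unfolded protein. In the integrated stress response, kinases phosphorylate the initiation factor eIF2, bulk translation falls and the Atf4 message is translated more. ATF4 then drives genes for amino acid synthesis, amino acid import and tRNA charging, and also Ddit3, which encodes the factor CHOP. In the unfolded protein response, the ER sensors IRE1 (Ern1), PERK (Eif2ak3) and ATF6 (Atf6) detect unfolded protein. PERK is one of the eIF2 kinases, so the 2 responses share a branch, while spliced XBP1 and cleaved ATF6 drive chaperone genes.

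The study asked what knockdown of Siva, a p53 target gene, changes in these lines. The control arms carried a hairpin against green fluorescent protein (shGFP, in pLKO.1) or against beta-galactosidase (shLacZ, in the vector LL37), and the knockdown arms carried shSiva1 or shSiva2 in pLKO TRC2.0. All cells were transduced with virus made in 293T cells, grown subconfluent in DMEM with 10% serum and harvested 2 days after plating. Puromycin selection lasted 3 days in the shGFP, shSiva1 and shSiva2 arms, and shLacZ cells were not selected. Each line and hairpin had 2 arrays, except shGFP in LSZ2 with 1, which makes 7 control and 8 shSiva arrays in 8 groups. The labels do not say that replicates are separate cultures, so the p-values measure the spread between these samples, which may be technical. All control arrays lay on slide 1 and all shSiva arrays on slide 2. Slide, vector backbone and arm therefore cannot be told apart. Comparisons between hairpins of an arm, or between lines within an arm, stayed within 1 slide.

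A level here is the log2 processed signal less the log2 75th percentile signal of its array, and levels of different genes are not comparable. That percentile ranged from 354 to 871, and the share of spots well above background from 49.0 to 60.6%. The 2 LSZ4 shGFP arrays were the dimmest, at 354 and 381. The target gene Siva1 was at 5.50 to 6.75 on control arrays and at 2.56 to 4.35 on shSiva arrays, and 17.6% of the control level remained (log2 change -2.51 ± 0.26 SE, adjusted p = 3.6e-05). Of the control level, 13.1% remained with shSiva1 and 23.5% with shSiva2. The epithelial markers Cdh1, Krt8, Krt18 and Krt19 were above background on 15 of 15 arrays. The lung lineage markers Nkx2-1, Sftpc, Sftpa1 and Foxj1 were above background on 0 of 15, while Sftpb was on 11 and Scgb1a1 on 8. Among other lineages, Cdh5, Pdgfra and Pdgfrb were on 0 arrays, while Cd3e, Pecam1, Kdr and Col1a2 were on 15.

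The promoters of these genes carry known elements for both responses, and the matches are shown so that the letters behind the counts on each side can be read. RefSeq promoter windows on GRCm38.p6, from 250 bases before to 50 after each start, were at hand for 33 of the 39 members in 35 windows. The C/EBP-ATF response element, searched as TGATGNAA on both strands, lay in 5 of 20 ATF4-side windows (Aars, Asns, Atf3, Chac1 and Trib3) and in 1 of 15 ER-side windows (Herpud1). It was in 3.97% of all 32851 mouse windows. The ER stress response element, searched as CCAAT and CCACG separated by 9 bases, was in 0 of 20 ATF4-side windows and in 6 of 15 ER-side windows, against 0.119% of all windows. Its 7 matches are printed on the strand of the motif, with CCAAT and CCACG in capitals.
Calr: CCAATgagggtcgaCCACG
Creld2: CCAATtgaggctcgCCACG
Dnajc3: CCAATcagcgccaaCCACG
Hsp90b1, first match: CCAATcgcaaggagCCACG
Hsp90b1, second match: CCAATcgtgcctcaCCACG
Hspa5: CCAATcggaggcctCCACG
Pdia6: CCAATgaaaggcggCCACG

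The second element of the unfolded protein response, ATTGG and CCACG separated by 1 base, was in 0.037% of all windows and, among members, in Herpud1. The core TGACGTGG, which XBP1 can bind, was in 0.676% of all windows and in no member window. No match says only that these letters are not in the window. The 250 bases before the start are printed for a gene of each kind, with matches in capitals. Asns encodes asparagine synthetase and has the C/EBP-ATF element alone. Herpud1, which acts in ER-associated degradation, has that element and the second ER element. Hspa5 encodes BiP, the main HSP70 chaperone of the ER, and has the ER stress response element.
Asns (chr6:7693210-7693459, minus strand): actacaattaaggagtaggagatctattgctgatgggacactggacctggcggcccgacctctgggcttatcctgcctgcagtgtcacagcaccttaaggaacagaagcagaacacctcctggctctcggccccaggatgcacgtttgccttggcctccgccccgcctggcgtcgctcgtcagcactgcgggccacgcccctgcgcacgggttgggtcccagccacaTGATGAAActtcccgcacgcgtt
Herpud1 (chr8:94386179-94386428, plus strand): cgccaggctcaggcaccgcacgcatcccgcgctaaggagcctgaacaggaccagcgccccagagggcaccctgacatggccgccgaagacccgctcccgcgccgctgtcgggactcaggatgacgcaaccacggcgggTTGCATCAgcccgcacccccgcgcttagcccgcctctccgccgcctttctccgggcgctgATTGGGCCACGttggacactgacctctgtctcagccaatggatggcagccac
Hspa5 (chr2:34771840-34772089, plus strand): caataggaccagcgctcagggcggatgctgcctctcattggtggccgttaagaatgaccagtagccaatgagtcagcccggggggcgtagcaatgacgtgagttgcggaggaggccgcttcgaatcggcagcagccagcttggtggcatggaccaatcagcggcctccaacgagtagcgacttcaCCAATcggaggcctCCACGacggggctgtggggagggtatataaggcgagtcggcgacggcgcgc

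Across the 8 groups, most of the ATF4 side was highest in the same group. LSZ4 shGFP had the highest mean for 19 of 21 ATF4-side members, and the exceptions were Atf3, highest in LSZ4 shSiva2, and Ddit3, highest in LSZ2 shSiva1. For 17 of 21, both LSZ4 shGFP arrays lay above all 13 other arrays, as they did for 30.2% of all genes. The ER side was split in that group. It held the highest mean for 7 of 18 members, among them Calr, Hyou1, Creld2, Manf, Sdf2l1 and Herpud1. It held the lowest for 5, namely Dnajb9, Dnajc3, Atf6, Hsp90b1 and Edem1. The share of all genes with their highest or lowest mean in LSZ4 shGFP was not counted, so these counts have no background. The median range between the highest and the lowest group mean was 1.59 on the log2 scale for the ATF4 side, 1.09 for the ER side and 1.26 for all genes. The widest ranges were those of Aars at 2.48, Atf5 at 2.40, Chac1 at 2.23, Hyou1 at 2.20 and Trib3 at 2.15. Hspa5 had the narrowest at 0.38, and its 15 values ran from 6.19 to 6.70.

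**Figure D1:**
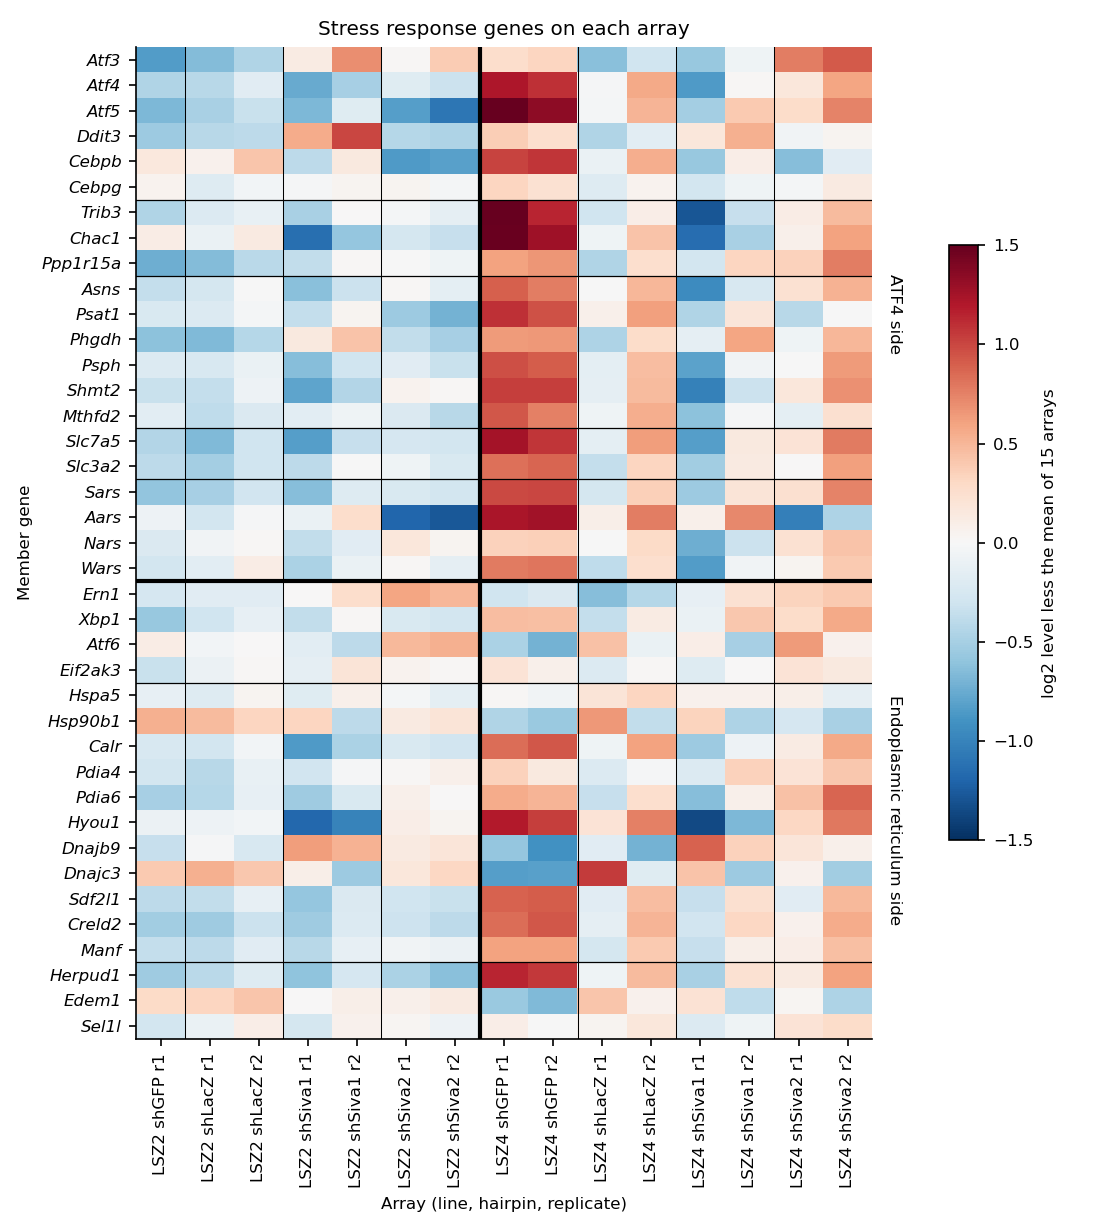
Heat map of the 39 members (rows, by class, ATF4 side above the thick line) on the 15 arrays (columns, by line and hairpin), coloured by the log2 level less the mean of the gene over 15 arrays. The 2 LSZ4 shGFP columns are red through the ATF4 side and mixed in the ER side, where Dnajc3 and Edem1 are blue.

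Array brightness moved with these levels. Centred on its 15-array mean, the median ATF4-side gene was at 0.97 and 0.90 on the LSZ4 shGFP arrays and at 0.52 on replicate 2 of LSZ4 shSiva2, and these are the 3 dimmest of 15 arrays. The lowest value, -0.57, came from replicate 1 of LSZ4 shSiva1, whose percentile signal of 804 was the second brightest. All genes moved the same way to a lesser degree, with medians of 0.34, 0.43 and 0.23 on the 3 dimmest arrays. The ATF4 side exceeded all genes there by 0.62, 0.47 and 0.29. The 2 LSZ4 shLacZ arrays had percentile signals of 763 and 498, and on the dimmer one all 21 ATF4-side members and 13 of 18 ER-side members were higher, by a median of 0.60 and 0.22 against 0.49 for all genes. The part of brightness in the results was not tested apart from a fit with it as a covariate, which was added after the data were seen. The 6 dimmest arrays were all LSZ4, while the other LSZ4 arrays, at 763 and 804, lay within the LSZ2 range of 665 to 871. Brightness and line thus overlap in part, and that fit cannot fully separate them.

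**Figure D2:**
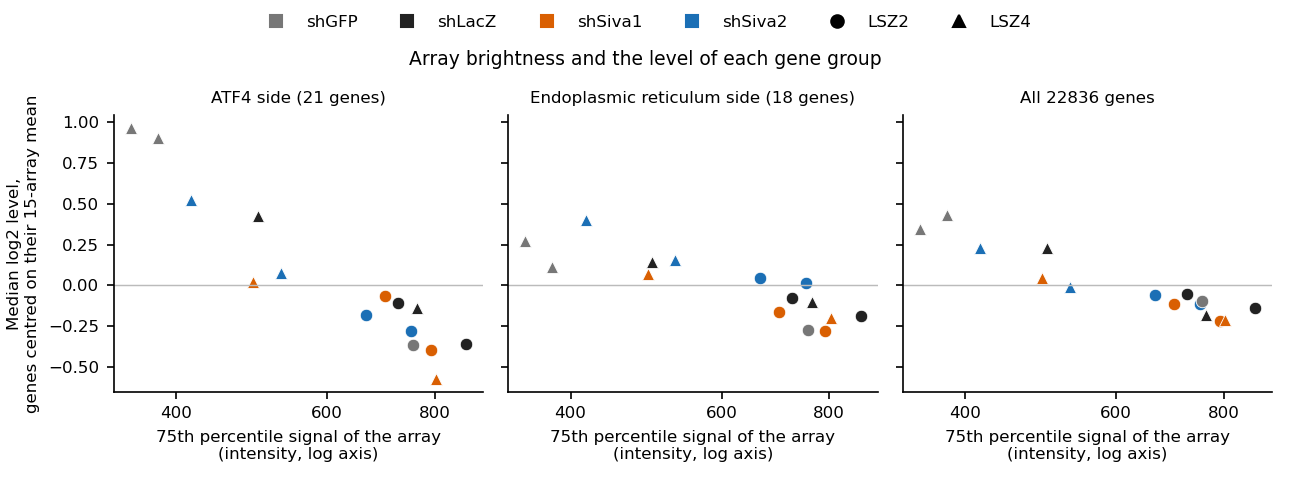
Median log2 level of the ATF4 side, the ER side and all 22836 genes on each array, each gene centred on its 15-array mean, against the 75th percentile signal of the array on a log axis. Colour gives the hairpin and shape the line, and the dimmest arrays (LSZ4 shGFP, 354 and 381) have the highest ATF4-side medians (0.97 and 0.90).

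With Siva hairpins, 3 members passed the threshold over both lines: Ern1 and Dnajb9 rose, and Cebpb fell. The other 36 did not pass. With limma and Benjamini-Hochberg adjustment at 0.05, 9.55% of all genes were called, 4.39% as higher and 5.16% as lower. On the ER side 2 of 18 were higher and on the ATF4 side 1 of 21 was lower. The median change was -0.35 for the ATF4 side, -0.06 for the ER side and -0.11 for all genes.

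Ern1 encodes IRE1, the ER sensor kinase and nuclease that splices Xbp1. Its probe lies at chr11:106258948-106259007 on the mm9 build, minus strand. In LSZ2 its level was 0.90 with shGFP, 0.98 and 0.98 with shLacZ, 1.16 and 1.42 with shSiva1, and 1.74 and 1.65 with shSiva2. In LSZ4 it was 0.85 and 0.93 with shGFP, 0.51 and 0.72 with shLacZ, 1.02 and 1.37 with shSiva1, and 1.48 and 1.54 with shSiva2. The 8 shSiva arrays lay above the 7 control arrays without overlap, as they did for 1.34% of all genes. The log2 change was 0.57 ± 0.13 (SE), or 1.49-fold, with an adjusted p of 0.00998. The call was lost with normexp background correction (adjusted p = 0.0775) and with 1 mean per group (adjusted p = 0.171, the highest of the 12 alternatives). Leaving out each array in turn kept the change between 0.53 and 0.63 and the adjusted p at 0.0256 or less.

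Dnajb9 encodes ERdj4, an ER co-chaperone of BiP that is induced through IRE1 and XBP1. The tested probe lies at chr12:45307313-45307372 on mm9, minus strand. In LSZ2 the level was -0.14 with shGFP, 0.19 and -0.03 with shLacZ, 0.84 and 0.73 with shSiva1, and 0.35 and 0.39 with shSiva2. In LSZ4 it was -0.36 and -0.70 with shGFP, 0.04 and -0.50 with shLacZ, 1.09 and 0.55 with shSiva1, and 0.39 and 0.29 with shSiva2. Again no shSiva array overlapped a control array. The log2 change was 0.78 ± 0.16, or 1.72-fold, with an adjusted p of 0.00673. A second, dimmer Dnajb9 probe at chr12:45308272-45308331 changed by 0.28 (adjusted p over all probes 0.226), so the probes of this gene disagree in size. The call was lost in 1 of 12 alternatives, with 1 mean per group (adjusted p = 0.112), and in none of the 15 fits without 1 array.

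Cebpb encodes C/EBPbeta, a leucine zipper factor that can pair with ATF4 on the C/EBP-ATF element. Its level in LSZ2 was 2.96 with shGFP, 2.87 and 3.22 with shLacZ, 2.42 and 2.95 with shSiva1, and 1.96 and 1.99 with shSiva2. In LSZ4 it was 3.82 and 3.87 with shGFP, 2.70 and 3.34 with shLacZ, 2.23 and 2.91 with shSiva1, and 2.17 and 2.63 with shSiva2. The arms overlapped in both lines, with replicate 2 of shSiva1 reaching the control range. The log2 change was -0.83 ± 0.21, a 1.78-fold lower level, with an adjusted p of 0.0196. This call was lost in 3 of 12 alternatives: with a random block for line and hairpin (adjusted p = 0.0824), with 1 mean per group (adjusted p = 0.156) and without both LSZ4 shGFP arrays (adjusted p = 0.094). In the last, Ern1 and Dnajb9 were the 2 members called, beside 5.81% of all genes. Without replicate 1 of LSZ4 shLacZ, 5 members and 15.8% of all genes were called. With brightness as a covariate, 18 members were called, 5 higher and 13 lower, and so were 29.1% of all genes.

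**Figure D3:**
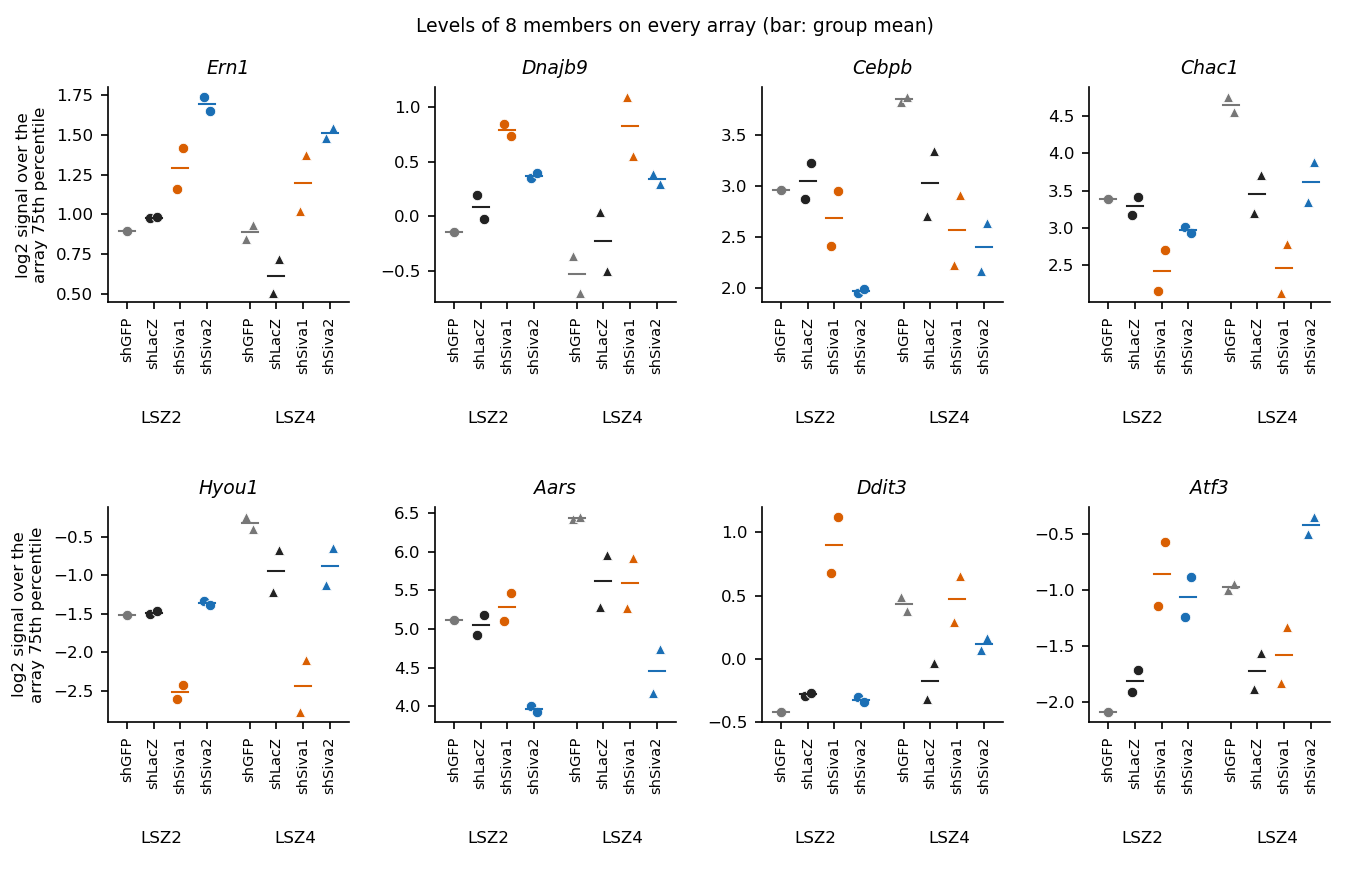
Level (log2 signal over the 75th percentile of the array) of 8 members on every array, in the 8 line and hairpin groups, with a bar at each group mean. Ern1 and Dnajb9 lie higher on all shSiva arrays than on all control arrays, Hyou1 and Chac1 are lowest with shSiva1, and Aars is lowest with shSiva2.

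The remaining ATF4-side members gave no call over both lines. Chac1, which degrades glutathione, had a log2 change of -0.84 ± 0.27 (adjusted p = 0.0684). Psat1, a serine synthesis enzyme, had -0.57 ± 0.19 (adjusted p = 0.0697), and its second probe had -0.68 (adjusted p over all probes 0.0334). Atf3, a stress-induced repressor, stood at 0.63 ± 0.24 (adjusted p = 0.111), and Ppp1r15a (GADD34), which directs the dephosphorylation of eIF2, at 0.24 ± 0.19. Atf4 itself had -0.44 ± 0.23 (adjusted p = 0.264). Of the 21 members, 17 had a negative and 4 a positive estimate. At an unadjusted p under 0.05, 4 were lower and 1 was higher. The median of the 6 amino acid and one-carbon enzymes was -0.39, of the 4 tRNA synthetases -0.23 and of the 2 transporter subunits -0.20.

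On the ER side, 16 of 18 members gave no call over both lines. Among the sensors and their factors, Xbp1 had 0.12 ± 0.15, Atf6 0.20 ± 0.21 and Eif2ak3 0.09 ± 0.12. The chaperone Hspa5 had -0.04 ± 0.11 and Hsp90b1 (GRP94) -0.20 ± 0.20. Hyou1, a large HSP70-like chaperone, had -0.76 ± 0.31 (adjusted p = 0.137), and Calr, the lectin chaperone calreticulin, -0.43 ± 0.19 (adjusted p = 0.17). The 3 degradation genes had a median of -0.10, with Herpud1 at -0.34 ± 0.20. The estimates were positive for 8 and negative for 10 members. Pdia6, a disulfide isomerase, read 0.05 on the tested probe and 0.47 on its second, neither of them past the threshold over both lines.

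Taken line by line, fewer members passed. In LSZ2, limma called 0 of 39 members (4 at an unadjusted p under 0.05, 3 of them higher), while 0.924% of all genes were called. In LSZ4 it called Dnajb9 alone, at 0.96 ± 0.22 (adjusted p = 0.0218), with 4.27% of all genes called. The median ATF4-side change was 0.00 in LSZ2 and -0.62 in LSZ4, and that of the ER side was 0.06 and -0.03. For all genes it was -0.02 and -0.17. The estimate was lower in LSZ4 than in LSZ2 for 21 of 21 ATF4-side members and 12 of 18 ER-side members. The test of that difference called 0 members and 0 genes (0%), and 1 member, on the ATF4 side, had an unadjusted p under 0.05. The LSZ4 count rests on its control arrays. Without replicate 1 of LSZ4 shLacZ it was 16 members, with 25.3% of all genes called. Without replicate 2, or without either or both LSZ4 shGFP arrays, it was 0, beside 1.55% to 2.2% of all genes. Relative to all genes, the ATF4-side median in LSZ4 was -0.45, and -0.13 without both LSZ4 shGFP arrays. The ER-side median relative to all genes was 0.15 there and turned to -0.09 with normexp background correction and to -0.04 without both LSZ4 shGFP arrays.

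The sets of called members differed between the 2 Siva hairpins, but a call with 1 hairpin alone does not test a difference between them. Chac1, Atf4, Asns and Calr were called with shSiva1 alone, and Atf3 and Cebpb with shSiva2 alone. None of these was called when the hairpins were set directly against each other. With shSiva1, 10 of 39 passed, 3 higher and 7 lower, a share near the 24.7% of all genes called. With shSiva2, 5 passed, 3 higher and 2 lower, a share near the 11.9% of all genes called. Leaving out either LSZ4 shSiva1 array reduced the first count to 5, beside 16.9% and 18.6% of all genes. Leaving out any 1 of the 4 shSiva2 arrays reduced the second to 3. So did leaving out replicate 1 of LSZ2 shGFP or LSZ2 shSiva1, or replicate 2 of either shLacZ group. Between 7.59% and 10.5% of all genes were called in these fits. Both comparisons share the same 7 control arrays. Ern1 and Dnajb9 were called higher in each: Ern1 by 0.39 ± 0.12 with shSiva1 and 0.75 ± 0.12 with shSiva2, Dnajb9 by 1.01 ± 0.16 and 0.56 ± 0.16. The shSiva1 call of Ern1 (adjusted p = 0.0315) was lost in 4 of 12 alternatives, up to an adjusted p of 0.253, and in 4 of 15 fits without 1 array. The shSiva2 call of Dnajb9 (adjusted p = 0.0386) was lost in 7 of 12 alternatives, up to an adjusted p of 0.23, and in 10 of 15 such fits.

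With shSiva1, 5 ATF4-side members fell. Chac1 fell by 1.26 ± 0.27 on the log2 scale (2.40-fold, adjusted p = 0.00381), from 3.18 to 4.76 on control arrays to 2.13 to 2.79 on the 4 shSiva1 arrays, below all others. Such a separation was seen for 4.05% of all genes. Shmt2, the mitochondrial serine hydroxymethyltransferase, fell by 0.84 ± 0.25, Atf4 fell by 0.73 ± 0.25, Asns fell by 0.72 ± 0.21 and Nars, asparaginyl-tRNA synthetase, fell by 0.49 ± 0.15. The last 4 lost their calls without both LSZ4 shGFP arrays. The Atf4 call (adjusted p = 0.0454) was lost in 5 of 12 alternatives and in 11 of 15 fits without 1 array. Ddit3 moved the other way, by 0.77 ± 0.20 (adjusted p = 0.0123). Its values with shSiva1 were 0.68 and 1.13 in LSZ2 and 0.30 and 0.66 in LSZ4, against -0.42 to 0.49 on the control arrays, where LSZ4 shGFP overlapped.

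On the ER side, shSiva1 went with lower Hyou1 and Calr. Hyou1 read -2.61 and -2.42 in LSZ2 and -2.78 and -2.10 in LSZ4 with shSiva1, and at least -1.51 on the other 11 arrays. The shSiva1 arrays lay below all others for 4.05% of all genes. The log2 change of Hyou1 was -1.44 ± 0.21 (2.71-fold lower, adjusted p = 0.000169). Hyou1 passed under all 12 alternatives and in each of the 15 fits without 1 array. Hyou1 has a single probe, at chr9:44199354-44199413 on mm9. Calr changed by -0.69 ± 0.19 (adjusted p = 0.0171). Hspa5 had -0.01 ± 0.12 and Pdia4 0.05 ± 0.15.

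With shSiva2, Aars and Cebpb fell and Atf3 rose. Aars, alanyl-tRNA synthetase, was at 4.0 and 3.92 in LSZ2 and 4.17 and 4.74 in LSZ4 with shSiva2. It was at least 4.92 on the other 11 arrays. The shSiva2 arrays lay below all others for 1.946% of all genes. The log2 change of Aars was -1.37 ± 0.23 (2.58-fold lower, adjusted p = 0.00107), and it passed under all 12 alternatives. The probe lies at chr8:113579376-113579434 on mm9. A second Aars probe was well above background on 6 arrays and had -0.71 (adjusted p over all probes 0.333). The other synthetases had 0.07 ± 0.25 (Sars), 0.12 ± 0.15 (Nars) and -0.06 ± 0.24 (Wars). Cebpb changed by -1.05 ± 0.23 (adjusted p = 0.00717). Atf3 changed by 0.86 ± 0.27 (adjusted p = 0.0491), and this call was lost in 11 of 15 fits without 1 array. Pdia6 did not pass on its tested probe (0.39 ± 0.20, adjusted p = 0.272), while its second, dimmer probe at chr12:17291323-17291382 on mm9 had 0.98 (adjusted p over all probes 0.000503).

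**Figure D4:**
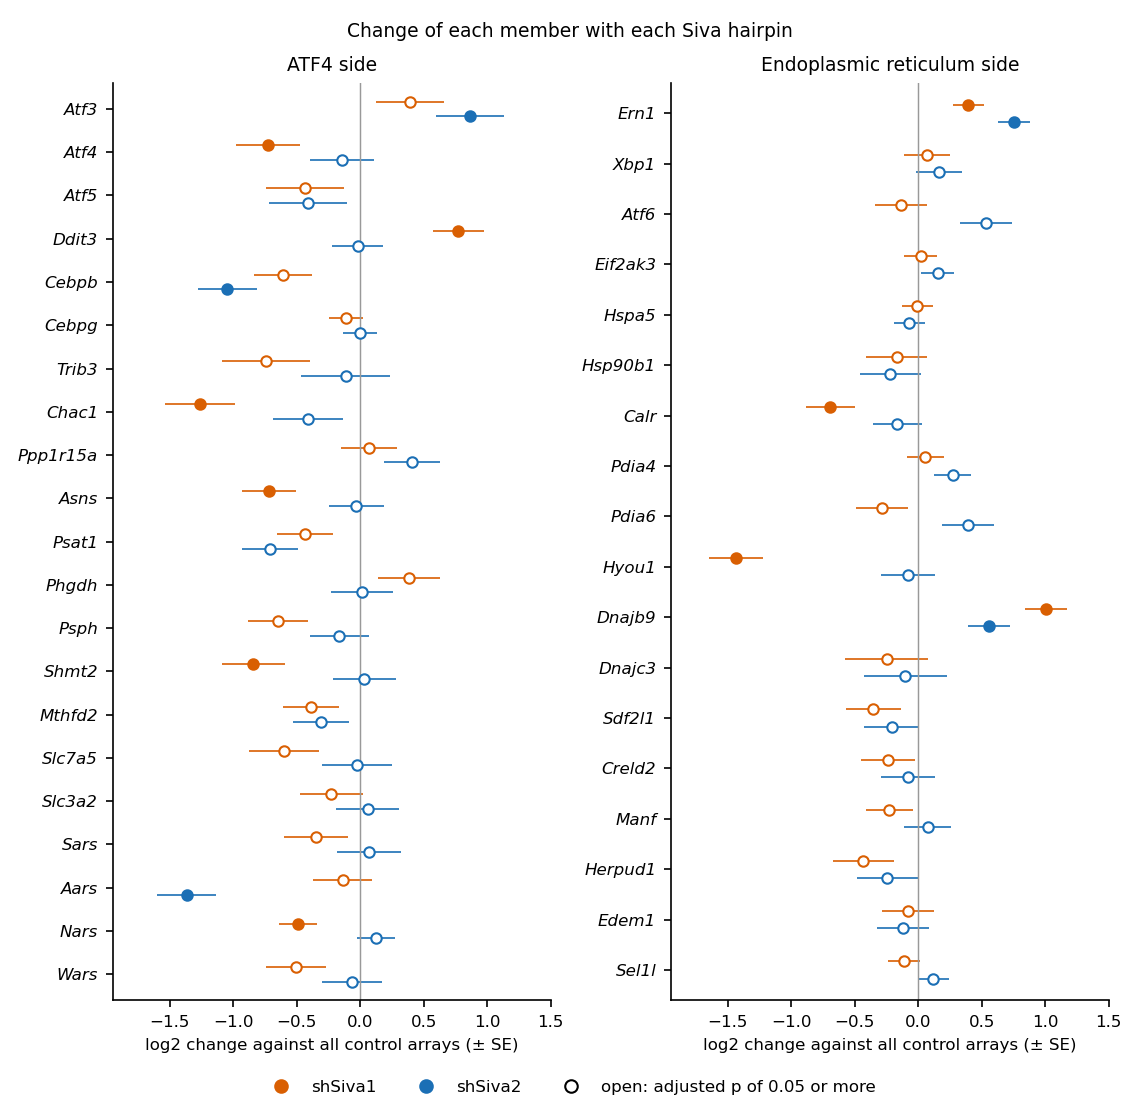
Log2 change (± SE) of each member with shSiva1 and with shSiva2 against the same 7 control arrays, filled where the adjusted p was under 0.05. Hyou1 (-1.44), Chac1 (-1.26) and Dnajb9 (1.01) stand out with shSiva1, and Aars (-1.37), Cebpb (-1.05) and Ern1 (0.75) with shSiva2.

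Set directly against each other on 1 slide, the hairpins differed for 5 members, while 19.2% of all genes were called. Hyou1 was higher with shSiva2 by 1.36 ± 0.24 (adjusted p = 0.000776), Shmt2 by 0.87 ± 0.28 and Nars by 0.62 ± 0.17. Aars was lower with shSiva2 by a log2 difference of -1.23 ± 0.26 (adjusted p = 0.00338) and Ddit3 by -0.79 ± 0.23 (adjusted p = 0.023). The differences of Aars and Hyou1 held in each fit without 1 array. The Aars call was lost only when its probes were averaged, and the Hyou1 call only with normexp (adjusted p = 0.0548). Of the 15 fits without 1 array, the Shmt2 call was lost in 8, the Ddit3 call in 4 and the Nars call in 2. Of the 12 alternatives, Shmt2 was lost in 3, and Ddit3 and Nars in 2 each. For Ern1 (0.36 ± 0.14, adjusted p = 0.0899) and Dnajb9 (-0.45 ± 0.19, adjusted p = 0.109) the difference between hairpins did not pass. The median difference was 0.41 for the ATF4 side, 0.17 for the ER side and 0.14 for all genes. The count rose to 11 members without replicate 1 of LSZ4 shLacZ, where 24.1% of all genes were called. It was 8 without replicate 1 of LSZ4 shGFP, beside 19.4% of all genes. It was 3 without replicate 1 of LSZ2 shSiva1 or either LSZ2 shSiva2 array, beside 15% to 15.5% of all genes.

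The call count also depended on which control hairpin served as the reference. Against shGFP, 8 members passed, 2 higher and 6 lower, and 20.4% of all genes were called. Against shLacZ, 2 passed and 11% of all genes were called. Ern1 and Dnajb9 were the members called against both, Ern1 at 0.50 ± 0.13 and 0.63 ± 0.12, and Dnajb9 at 0.96 ± 0.17 and 0.65 ± 0.15. The 6 lower members against shGFP were Chac1 (-1.29 ± 0.24), Cebpb (-1.10 ± 0.23), Aars (-1.07 ± 0.22), Hyou1 (-1.00 ± 0.21), Psat1 (-0.81 ± 0.23) and Calr (-0.64 ± 0.20). Those against shLacZ, in the same order, had -0.51, -0.63, -0.52, -0.58, -0.40 and -0.28. Without both LSZ4 shGFP arrays, 0 members and 1.41% of all genes were called against shGFP, from the 1 shGFP array left, in LSZ2. Without that LSZ2 array, 23 members were called against shGFP and 5 against shLacZ, beside 39% and 12.7% of all genes. The shGFP count was 14 without replicate 2 of LSZ2 shSiva1, and 4 and 3 without replicate 1 and 2 of LSZ4 shGFP. All genes were called there at 22.8%, 8.47% and 6.23%. The shLacZ count was 4 without replicate 1 of LSZ4 shSiva1 and 1 without replicate 2 of LSZ4 shLacZ, beside 11.9% and 8.23% of all genes.

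Between the control hairpins themselves, limma called 0 members and 1 gene of all (0.00438%), with 4 members at an unadjusted p under 0.05, 2 in each direction. The estimate was higher with shGFP for 21 of 21 ATF4-side members, with a median of 0.48, and for 11 of 18 ER-side members, with a median of 0.16. All genes had a median of 0.25. Split by line, a difference that was not tested, the ATF4-side median of LSZ4 shGFP less LSZ4 shLacZ was 0.81, and in LSZ2 it was -0.12, with 6 of 21 members higher. All genes had 0.43 and -0.04. In LSZ4 the ER-side members Dnajc3 (-1.25), Edem1 (-0.85), Atf6 (-0.76) and Hsp90b1 (-0.64) had lower means with shGFP. The LSZ4 shLacZ arrays themselves differed for these genes. Replicate 2 less replicate 1 was -1.22 for Dnajc3, -0.35 for Edem1, -0.54 for Atf6 and -1.02 for Hsp90b1. This gap was larger than the lower mean with shGFP for Hsp90b1 and about as large for Dnajc3. It was smaller for Atf6 (-0.54 against -0.76) and Edem1 (-0.35 against -0.85). For Dnajc3 and Edem1, both LSZ4 shGFP arrays lay below all other arrays, as they did for 7.79% of all genes. Whether these lower means exceed the spread within shLacZ was not tested. Selection with puromycin and the vector cannot be told apart from the hairpin between shGFP and shLacZ.

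Between the lines on the control arrays, 1 ATF4-side and 1 ER-side member passed. All 21 ATF4-side members had a higher estimate in LSZ4 there, with a median of 0.82, against 12 of 18 members and 0.27 for the ER side and 0.32 for all genes. Of the 39 members these 2 passed, a share near the 5.46% of all genes called. Atf5, an ATF4-related factor, was 1.34 ± 0.37 higher (adjusted p = 0.0485), at 7.08 and 6.87 in LSZ4 shGFP, 5.50 and 6.04 in LSZ4 shLacZ and 4.86 to 5.19 on the 3 LSZ2 control arrays. Creld2, an ER-stress induced disulfide isomerase, was 0.99 ± 0.25 higher (adjusted p = 0.0386), at 5.85 to 6.91 in LSZ4 and 5.46 to 5.67 in LSZ2. Both calls were lost without either LSZ4 shGFP array and with brightness as a covariate. The 6 dimmest arrays were all LSZ4, so the covariate overlaps in part with line and cannot fully separate brightness from a line difference. Without replicate 1 of LSZ4 shLacZ, 26 members were called, and so were 56.3% of all genes. Without replicate 1 of LSZ4 shSiva1 the count was 10, beside 17% of all genes. Without replicate 2 of LSZ4 shSiva2 it was 4, beside 8%. In each of the other 12 fits without 1 array it was 0 or 1, beside 1.55% to 4.72% of all genes.

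On the shSiva arrays, limma called 0 members between the lines (4 at an unadjusted p under 0.05, all higher in LSZ4), and 1.62% of all genes. The ATF4-side median was 0.21, the ER-side median 0.18 and that of all genes 0.15. Atf5 had 0.92 ± 0.34 (adjusted p = 0.337) and Creld2 0.52 ± 0.24 (adjusted p = 0.46). For Xbp1 the difference was 0.50 on both slides, with SEs of 0.23 and 0.21. The 2 line comparisons contrast different arrays, but both come from a fit to all 15 arrays with 1 spread per gene.

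**Figure D5:**
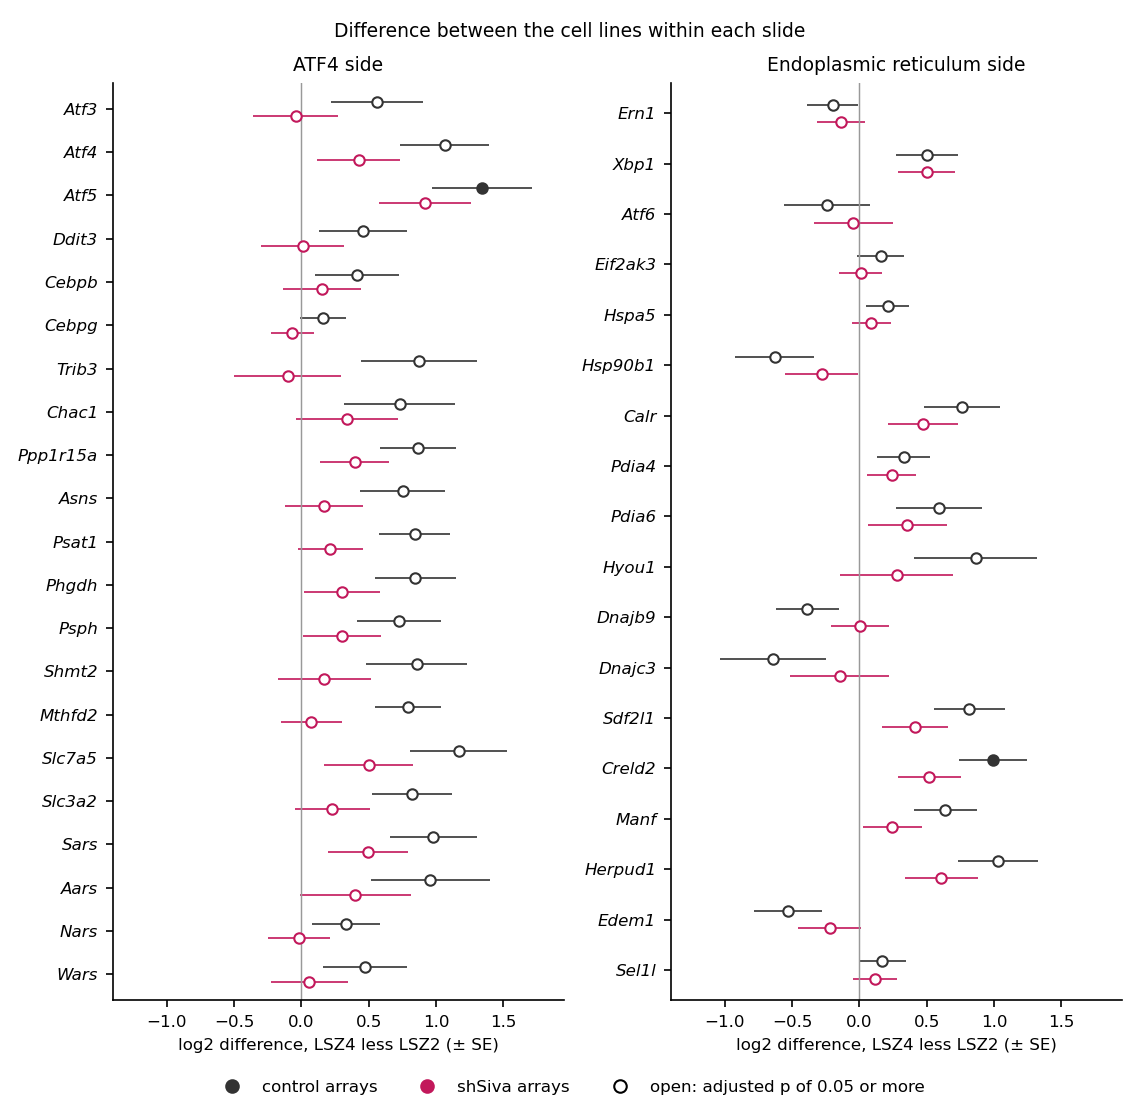
Log2 difference of LSZ4 less LSZ2 (± SE) for each member on the control arrays and on the shSiva arrays, filled where the adjusted p was under 0.05. All ATF4-side members lie right of 0 on the control arrays, and Dnajc3, Hsp90b1, Edem1, Dnajb9, Atf6 and Ern1 lie left of it.

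Further genes of the 2 pathways were read against the same background. Of 46 other integrated stress response genes tested, 2 were called higher and 1 lower with Siva hairpins, and of 41 other ER genes 1 was higher, against 9.55% of all genes. Cbs, which makes cystathionine, had a log2 change of 2.78 ± 0.68 (adjusted p = 0.0179), and Vldlr, a lipoprotein receptor, had 2.14 ± 0.47 (adjusted p = 0.01). Aldh1l2, a mitochondrial folate enzyme, had -1.13 ± 0.26 (adjusted p = 0.0114). Its call was lost in 3 of 12 alternatives, with normexp at -0.34 (adjusted p = 0.435). The change of Creb3l2, a membrane-bound factor related to ATF6, was 0.70 ± 0.14 (adjusted p = 0.00688). Vldlr, Cbs and Creb3l2 lost their calls with 1 mean per group, and Vldlr also without both LSZ4 shGFP arrays. The median change was -0.17 for the first list and -0.07 for the second. Between the lines on control arrays, 3 of the 46 were higher in LSZ4, namely Stc2 (1.90 ± 0.52) and the tRNA synthetases Yars (1.05 ± 0.25) and Tars (0.73 ± 0.20). Of the 41, Ufm1 (0.96 ± 0.26) and Ostc (0.68 ± 0.17) were higher and Srp54a (-0.96 ± 0.22) was lower, where 5.46% of all genes were called. All 6 of these line calls were lost without both LSZ4 shGFP arrays and with brightness as a covariate, which overlaps with line. Each was lost in 6 to 8 of 12 alternatives and in 6 to 12 of 15 fits without 1 array, and Ufm1 turned to -0.27 when its probes were averaged.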

How the data were processed

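Total RNA of 15 samples was labelled with Cy3 and hybridised to 1-colour Agilent arrays, 200 ng each per the labels' protocols. Per the file headers, the authors extracted the deposited spot intensity with Agilent software (Feature Extraction 10.7.3.1), as a processed signal with background subtracted and spatial and multiplicative trends removed. The authors' deposited value table holds log2 values, centred per probe with steps otherwise not given in the sources used here, and served as an alternative. Probe positions are mm9, per the file headers.

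Control spots and outlier-flagged spots were left out, spots of a probe averaged, and log2 processed signals reduced by the 75th percentile of the array, with no pseudocount. Testing needed a probe well above background on 4 or more arrays, with 3 or fewer values missing. Of 55681 probes 32188 passed, and the probe with the highest mean stood for its gene, which gave 22836 genes. Gene names are those of the files. limma 3.58.1 in R 4.3.3 fitted all 15 arrays with 1 spread per gene, Benjamini-Hochberg adjustment over all genes and a threshold of 0.05. The number of arrays limits the precision. Motifs were searched with Python 3.11.15, and figures drawn with matplotlib 3.10.9.

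The members and lists were chosen with earlier results of these data known. Named are all members, Siva1, and, of each other pathway list, the 3 genes with the smallest p past the threshold in shSiva against control and in either line comparison. Alternatives were quantile and median scaling, normexp with offset 50, the authors' table, other probe filters, averaged probes, replicate and group blocks, group means, and leaving out each array. Leaving out both LSZ4 shGFP arrays and a brightness covariate were added after seeing the data.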

Additional observations from a re-analysis of the deposited data

Results flagged for a closer look

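For each of 39 members, the highest and lowest of 4 arrays were compared with the rest in 3 groups of 1 line and arm. Of these 117 tests, 3 (2.56%) stood apart. The rule gives about 1 in 20 by chance where all values are of 1 kind. Each group pooled 2 hairpins, so that rate does not apply and the share cannot be judged against it. Hsp90b1, the ER chaperone GRP94, was at 6.26 on replicate 1 of LSZ4 shLacZ, against 5.05 to 5.23 on the other 3 LSZ4 control arrays. Slc7a5, a subunit of an amino acid transporter, was at 1.52 on replicate 1 of LSZ2 shSiva1, against 2.00 to 2.09 on the other 3 LSZ2 shSiva arrays. Hspa5, which encodes BiP, was at 6.25 on replicate 2 of LSZ4 shSiva2, against 6.44 to 6.48 on the other 3 LSZ4 shSiva arrays. None of these 3 genes was called in any of the 12 comparisons.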

How the results depend on the processing

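Counts of called members are given here for shSiva against control unless another comparison is named. With quantile normalization they were 6 over both lines, 3 in LSZ4, 14 for shSiva2 against shSiva1, 14 against shGFP, 8 against shLacZ and 1 for the lines on control arrays. Of all genes, 13.8%, 6.78%, 26.8%, 26.7%, 17% and 6.02% were then called, in the same order. With median scaling the counts were 3 in LSZ4 and 8 for the lines on control arrays, beside 5.28% and 9.13% of all genes. With normexp the counts were 2 in LSZ4, 3 for shSiva2, 5 against shGFP and 0 for the lines on control arrays. The matching shares of all genes were 2.39%, 5.27%, 6.38% and 1.94%. With no filter on dim probes the counts were 3 for shSiva2 and 0 for the lines on control arrays. Shares of all genes there were 9.47% and 2.8%. With a random block for each line and hairpin the counts were 0 in LSZ4, 4 for shSiva1, 3 for shSiva2, 2 for shSiva2 against shSiva1 and 0 for the lines on control arrays. In the same order, 1.16%, 15.5%, 7.4%, 13.4% and 1.62% of all genes were called. With 1 mean per group the counts were 0 over both lines, 0 in LSZ4, 3 for shSiva1, 1 for shSiva2, 2 for shSiva2 against shSiva1, and 0 against shGFP, against shLacZ and for the lines on control arrays. All genes then stood at 1.19%, 0.145%, 11%, 4.86%, 8.95%, 3.28%, 1.9% and 0.648%, in the same order. Ufm1 turned to -0.27 between the lines on control arrays when its probes were averaged.

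Whether the replicate numbers pair the samples is not given by the labels. Of 21 correlations between same-numbered deviations of 7 groups, 14 were over 0.1 (-0.21 to 0.73), so not every pair was. The 4 below -0.1 all involve LSZ2 shSiva2, and among the other 6 groups 14 of 15 were over 0.1. With the replicate block the counts were 3 in LSZ4, 8 for shSiva2 against shSiva1, 21 against shGFP and 6 against shLacZ, beside 5.83%, 22.5%, 43.2% and 16.4% of all genes.

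2 alternatives were chosen after seeing the data. Without both LSZ4 shGFP arrays the counts were 0 in LSZ4, 6 for shSiva1, 9 for shSiva2 against shSiva1 and 0 for the lines on control arrays. The shares of all genes called were 1.55%, 20.7%, 23.6% and 1.34%. With brightness as a covariate the counts were 18 over both lines, 5 in LSZ2, 10 in LSZ4, 24 for shSiva1, 18 for shSiva2, 17 for shSiva2 against shSiva1, 17 against shGFP, 23 against shLacZ and 0 for the lines on control arrays. All genes were then called at 29.1%, 8.25%, 17.2%, 49.8%, 38.4%, 42%, 30.5%, 39.2% and 2.4%, in the same order.

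Leaving out each array in turn gave 3 to 5 over both lines, 0 to 16 in LSZ4, 5 to 14 for shSiva1, 3 to 6 for shSiva2, 3 to 11 for shSiva2 against shSiva1, 3 to 23 against shGFP, 1 to 5 against shLacZ and 0 to 26 for the lines on control arrays. In the same order, the lowest shares of all genes were 6.49%, 2.13%, 16.9%, 7.59%, 14.9%, 6.23%, 7.76% and 1.55%. The highest were 15.8%, 25.3%, 37.8%, 17%, 24.1%, 39%, 12.7% and 56.3%. The cause of these shifts was not tested. Groups of 1 or 2 arrays limit every comparison, and a lone LSZ2 shGFP array is assumed to vary like the other groups.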
